A study of Mus musculus with 12 samples.

Results

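The transcription factor NRF2, its inhibitor KEAP1 and 8 genes of glutathione and thioredoxin defence were followed in mpkCCDc11, an established line of mouse cortical collecting duct epithelium. In this stretch of the kidney tubule vasopressin acts on principal cells to raise water uptake. The members were chosen by symbol: Nfe2l2, Keap1, Gclc, Gclm, Slc7a11, Gsr, Srxn1, Txnrd1, Nqo1 and Hmox1, which are 10 of the 45777 genes in the authors' deposited gene table. All 10 were present, and all 10 passed the filter on low counts. Messenger RNA was sequenced in 12 libraries, 3 in each of 4 groups: TAZ siRNA with dDAVP, TAZ siRNA with vehicle, control siRNA with dDAVP, and control siRNA with vehicle. dDAVP is a synthetic vasopressin analogue, given at 1e-09 M to the basolateral side. TAZ is the Hippo pathway coactivator encoded by Wwtr1. All groups were labelled wild type (WT), came from this single line at passages 11 to 16, grew on filters for 3 days and then spent 24 h without serum and hormones. The labels list exposures of 15 min, 30 min and 24 h and do not assign one to these libraries, so the exposure time of every value here is not known. The growth medium held 60 nM sodium selenite, a source of selenium for selenoproteins such as Txnrd1, with transferrin, dexamethasone, triiodothyronine, epidermal growth factor, insulin and fetal bovine serum. Whether the libraries of a group were separate cultures is not stated, so the p-values rest on a spread between libraries that may be technical only.

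NRF2, the product of Nfe2l2, is a leucine zipper factor that pairs with small MAF proteins and binds antioxidant response elements near genes of glutathione synthesis, thioredoxin recycling and detoxification. KEAP1 holds NRF2 in the cytoplasm and hands it to the CUL3 ubiquitin ligase for breakdown, and oxidants or electrophiles that modify KEAP1 let NRF2 accumulate, so that control is largely on the protein and a transcript level alone does not report NRF2 activity. In kidney tubules the pathway is known for its protection against oxidative and toxic injury.

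Library totals were 45095331 to 61725339 counts. Wwtr1, the target of the TAZ siRNA, averaged 64.1 ± 6.75 TPM (the authors' length-scaled share of transcripts) in TAZ siRNA dDAVP libraries, 66.7 ± 1.96 TPM in TAZ siRNA vehicle libraries, 91.4 ± 5.01 TPM in control siRNA dDAVP libraries and 102.9 ± 3.95 TPM in control siRNA vehicle libraries (SD, n = 3 each). The target was thus lowered and not removed. All 14 markers of collecting duct and principal cells on the list used were tested, but not all were detected in every library. Aqp2 ran from 0 to 83.75 TPM over all libraries. It differed between dDAVP and vehicle libraries with either siRNA (edgeR adjusted p = 1.39e-06 with TAZ siRNA and 1.23e-07 with control siRNA). Aqp3 (0.4547 to 1.629 TPM) and Scnn1b (0.2215 to 1.145 TPM) were low throughout. The summed TPM of fibroblast markers was 1.92 to 3.28 over all libraries, with Col1a2, Col3a1 and Dcn at 0, and the endothelial Kdr and Emcn, the T cell marker Cd3e and the podocyte marker Nphs1 were also at 0. Other markers on the nephron and immune lists were detected in every library, among them Podxl at 26.1 to 56.6 TPM, Lrp2 at 21.4 to 33.6 TPM, Csf1r at 19.2 to 32.3 TPM and Cd68 at 5.37 to 9.03 TPM.

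In RefSeq (GRCm38.p6), promoter windows of 300 bases, 250 before and 50 after a transcript start, were found for 7 of the 10 members, 9 windows in all. Windows of 4 members are printed because Srxn1, Txnrd1 and Nqo1 were among the members that rose with dDAVP, while Slc7a11 did not pass the test. Capitals mark TGACNNNGC, a core form of the antioxidant response element, TGANTCA, which AP-1 and MAF factors recognise, and TGATGNAA, the composite of ATF4 and C/EBP. Other forms of the antioxidant response element were not searched as such. Both strands were searched, so TGACNNNGC on the opposite strand reads GCNNNGTCA.
Srxn1 promoter, chr2:152105274-152105573, plus strand: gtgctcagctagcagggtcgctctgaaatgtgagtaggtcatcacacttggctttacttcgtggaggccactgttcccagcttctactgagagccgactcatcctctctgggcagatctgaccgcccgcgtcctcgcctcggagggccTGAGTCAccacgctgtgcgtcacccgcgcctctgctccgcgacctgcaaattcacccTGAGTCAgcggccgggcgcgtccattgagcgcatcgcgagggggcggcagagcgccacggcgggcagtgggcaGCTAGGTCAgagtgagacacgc
Txnrd1 promoter, chr10:82858956-82859255, plus strand: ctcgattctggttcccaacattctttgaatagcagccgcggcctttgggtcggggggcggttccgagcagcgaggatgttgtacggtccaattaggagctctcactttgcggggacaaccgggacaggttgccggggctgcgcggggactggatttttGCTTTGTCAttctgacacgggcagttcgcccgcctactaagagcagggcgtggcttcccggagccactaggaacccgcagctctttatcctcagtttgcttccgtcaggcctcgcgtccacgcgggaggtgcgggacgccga
Nqo1 promoter, chr8:107403156-107403455, minus strand: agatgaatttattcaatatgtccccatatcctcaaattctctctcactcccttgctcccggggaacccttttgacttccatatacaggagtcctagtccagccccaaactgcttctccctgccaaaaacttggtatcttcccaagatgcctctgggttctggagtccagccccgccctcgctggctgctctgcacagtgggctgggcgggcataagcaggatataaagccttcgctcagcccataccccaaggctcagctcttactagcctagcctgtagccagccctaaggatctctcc
Slc7a11 promoter, chr3:50443564-50443863, minus strand: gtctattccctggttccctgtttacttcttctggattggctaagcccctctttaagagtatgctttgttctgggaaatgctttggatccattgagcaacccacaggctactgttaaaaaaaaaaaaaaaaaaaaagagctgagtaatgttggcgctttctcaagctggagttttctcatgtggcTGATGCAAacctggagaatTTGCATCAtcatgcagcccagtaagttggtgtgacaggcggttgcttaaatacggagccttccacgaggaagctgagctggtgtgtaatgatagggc
The Srxn1 window held TGANTCA at 2 places, starting 102 and 45 bases before the start, and TGACNNNGC on the opposite strand from base 28 to base 36 after it. In the Txnrd1 window TGACNNNGC lay on the opposite strand, 92 to 84 bases before the start. The Nqo1 window held none of the motifs searched. The Slc7a11 window held TGATGNAA at 2 places, 1 on each strand, starting 66 and 47 bases before the start. TGACNNNGC was in 4 of the 9 windows of the members (Nfe2l2, Gclm, Srxn1 and 1 of the 3 Txnrd1 windows) and in 12.4% of all 32851 windows in the table. On the given strand alone it was in 1 of the 9 windows and in 6.38% of all windows. TGANTCA was in 7.81% of all windows and TGATGNAA in 3.97%. The full cAMP response element, TGACGTCA, was in 0 of the 9 windows and in 1.79% of all windows. Its short form TGACG, not in capitals above, was in 3 of the 9 and in 20.8% of all windows, and in Gclm it overlapped TGACNNNGC. A match is a run of letters in this window and does not show a bound site.

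Levels per length put the NRF2 gene itself near the top of the members. In control siRNA vehicle libraries the mean levels were 231.7 TPM for Nfe2l2, 196.7 TPM for Txnrd1, 152.8 TPM for Gsr, 99.4 TPM for Nqo1, 65.6 TPM for Keap1, 50.9 TPM for Gclm, 37.0 TPM for Gclc, 22.7 TPM for Srxn1, 17.4 TPM for Hmox1 and 2.16 TPM for Slc7a11. Neighbours in that order did not overlap between libraries of this group. Elsewhere the ranges of Nfe2l2 and Txnrd1 overlapped in each of the other 3 groups, those of Gsr and Nqo1 overlapped in both TAZ siRNA groups, and those of Gclm and Gclc overlapped in control siRNA dDAVP libraries. The order changed at the top, where Txnrd1 averaged 250.8 TPM and Nfe2l2 240.1 TPM in TAZ siRNA dDAVP libraries, and in that group Nqo1 (179.5 TPM) also stood level with Gsr (174.6 TPM). Ranking the genes by library-scaled counts (CPM) per kilobase gave the same order in all 4 groups.

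**Figure D1:**
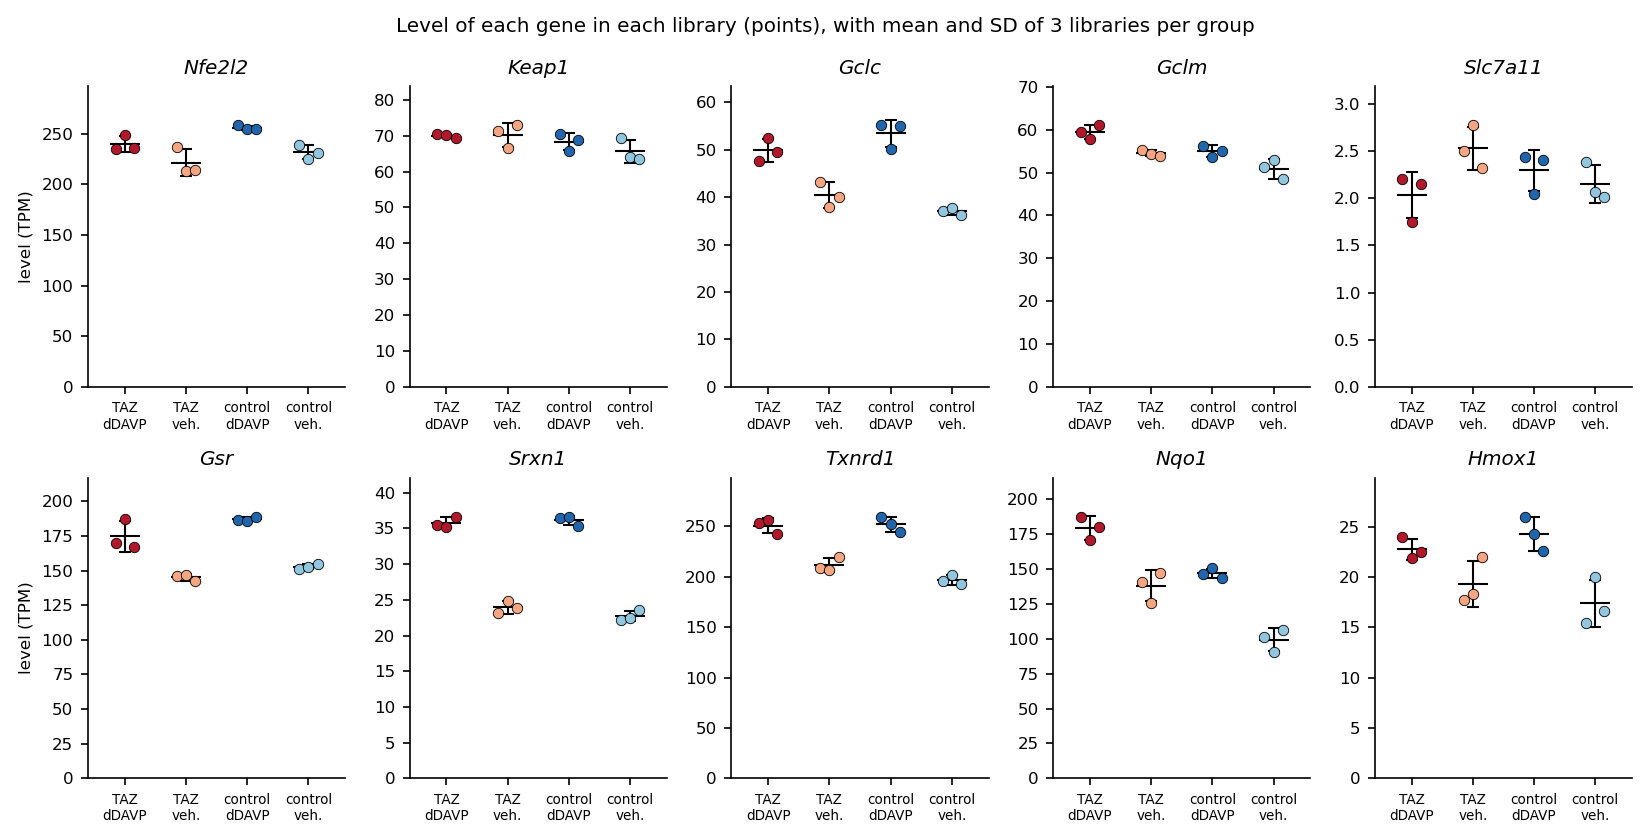
Level of each of the 10 genes in TPM (vertical axes, each from 0) in the 4 groups of 3 libraries, from left to right TAZ siRNA dDAVP, TAZ siRNA vehicle, control siRNA dDAVP and control siRNA vehicle; points are libraries, long bars the mean and whiskers the SD. Srxn1 lies between 35.2 and 36.6 TPM in the 6 dDAVP libraries and between 22.2 and 24.9 TPM in the 6 vehicle libraries, and Nqo1 also lies higher in both TAZ siRNA groups than in the matching control siRNA groups.

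With control siRNA, dDAVP raised 8 of the 10 members and lowered 0, at an adjusted p under 0.05 in edgeR's quasi-likelihood test with Benjamini-Hochberg adjustment over 15932 genes. Of all tested genes, 19.2% were called in this comparison, 9.72% higher and 9.48% lower. Srxn1, Nqo1, Gclc and Hmox1 rose by 0.54 to 0.72 on the log2 scale, Txnrd1 and Gsr by 0.41 and 0.34, and Nfe2l2 and Gclm by 0.20 and 0.17. The median log2 fold change of the 10 members was 0.38, against -0.001 over all tested genes. Keap1 and Slc7a11 did not pass the test. All 8 calls kept their side of the threshold under each of the 19 alternatives run for each gene.

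With TAZ siRNA, dDAVP raised 7 of the 10 members and lowered 0, where 10.8% of all tested genes were called, 6.38% higher and 4.41% lower. The median log2 fold change of the members was 0.28, against -0.0009 over all tested genes. Srxn1, Nqo1, Gclc, Gsr and Txnrd1 rose by 0.28 to 0.61 on the log2 scale and kept the call under every alternative run, while Gclm and Nfe2l2 rose by 0.16 and 0.15 and lost it under several. Hmox1, Keap1 and Slc7a11 did not pass the test. Leaving out TAZ siRNA vehicle replicate 2 took the number of members called from 7 to 5.

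**Figure D2:**
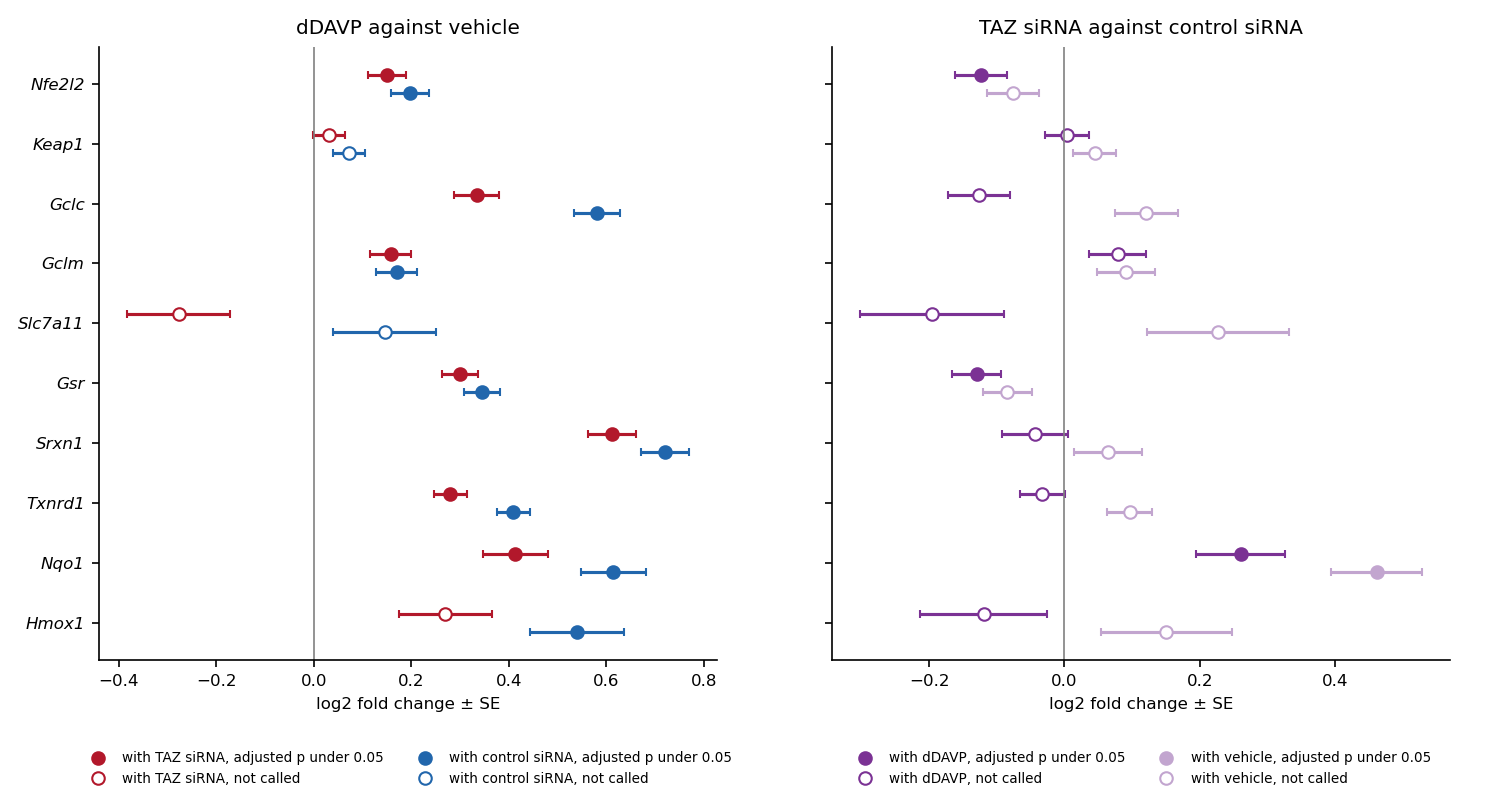
Log2 fold change of each gene (horizontal axes) with its standard error, at left for dDAVP against vehicle with TAZ siRNA (red) and with control siRNA (blue), and at right for TAZ siRNA against control siRNA with dDAVP (dark purple) and with vehicle (light purple). Filled points passed an adjusted p of 0.05 and open points did not; at left 7 red and 8 blue points are filled and all lie above 0, and at right the filled points are Nqo1 in both comparisons and Nfe2l2 and Gsr in the comparison with dDAVP.

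Nfe2l2 (chr2:75675513-75704663, GRCm38), which encodes NRF2, had 235.5, 249.0 and 235.7 TPM in TAZ siRNA dDAVP libraries and 236.8, 213.2 and 214.5 TPM in TAZ siRNA vehicle libraries. It had 258.5, 254.8 and 255.0 TPM in control siRNA dDAVP libraries and 239.1, 225.1 and 231.0 TPM in control siRNA vehicle libraries. With control siRNA the 3 dDAVP libraries lay above the 3 vehicle libraries, while with TAZ siRNA the ranges overlapped in TPM. In CPM they stood apart, at 222.7 to 228.7 in TAZ siRNA dDAVP libraries and 197.4 to 215.5 in TAZ siRNA vehicle libraries. The log2 fold change with dDAVP was 0.15 ± 0.04 with TAZ siRNA (SE, edgeR adjusted p = 0.0156) and 0.20 ± 0.04 with control siRNA (adjusted p = 0.00121). With TAZ siRNA that call was lost without TAZ siRNA dDAVP replicate 2 (adjusted p = 0.0769) and without TAZ siRNA vehicle replicate 2 or 3 (0.128 and 0.0702). It was also lost when the compared groups were fitted alone (0.0534). Nearly all of its counts, at least 99.2% in each library, sat on transcript NM_010902.

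Keap1 (chr9:21229730-21239332), which encodes the inhibitor of NRF2, stayed within 63.4 to 72.9 TPM over all 12 libraries. It averaged 70.0 ± 0.522 TPM in TAZ siRNA dDAVP libraries, 70.2 ± 3.38 TPM in TAZ siRNA vehicle libraries, 68.3 ± 2.44 TPM in control siRNA dDAVP libraries and 65.6 ± 3.22 TPM in control siRNA vehicle libraries (SD, n = 3 each). No comparison of Keap1 passed the test, with edgeR adjusted p = 0.617 for dDAVP with TAZ siRNA and 0.138 for dDAVP with control siRNA. Its counts were divided over 4 transcript models, of which NM_001110307 took 40.4% to 64.3%, so values of single Keap1 transcripts are less certain than the gene's sum.

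Within a library, the level of Nfe2l2 over that of Keap1 in TPM averaged 3.43 ± 0.106 in TAZ siRNA dDAVP libraries, 3.16 ± 0.195 in TAZ siRNA vehicle libraries, 3.75 ± 0.112 in control siRNA dDAVP libraries and 3.53 ± 0.0992 in control siRNA vehicle libraries (SD, n = 3 each). In TPM the 3 libraries of each group lay apart from those of the group it is compared with in all 4 comparisons, higher with dDAVP and lower with TAZ siRNA. With TAZ siRNA the gap was narrow, at 3.342 in the lowest dDAVP library and 3.320 in the highest vehicle library. In CPM the ratios of the 2 vehicle groups overlapped. There TAZ siRNA vehicle replicate 1 had 215.5 for Nfe2l2 and 90.7 for Keap1, and control siRNA vehicle replicate 2 had 204 and 86.8. Each of the 4 comparisons in TPM had p = 0.1 in a two-sided exact permutation test, the smallest that 3 libraries against 3 can give, and 0.15 after Benjamini-Hochberg adjustment over the 12 comparisons of 3 such ratios.

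Gclc (chr9:77754535-77794489) encodes the catalytic subunit of glutamate-cysteine ligase, the rate-limiting enzyme of glutathione synthesis. It had 47.6, 52.5 and 49.4 TPM in TAZ siRNA dDAVP libraries and 43.3, 38.0 and 40.0 TPM in TAZ siRNA vehicle libraries. In control siRNA dDAVP libraries it had 55.1, 50.1 and 55.0 TPM, and in control siRNA vehicle libraries 37.2, 37.7 and 36.1 TPM. The dDAVP libraries lay above the vehicle libraries with either siRNA. Gclc rose with dDAVP by 0.33 ± 0.05 on the log2 scale with TAZ siRNA (SE, edgeR adjusted p = 8.11e-05) and by 0.58 ± 0.05 with control siRNA (adjusted p = 7.35e-08). Transcript NM_010295 took 88.8% to 99.1% of its counts.

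Gclm (chr3:122245487-122267215), the modifier subunit that makes the same ligase more efficient, had 59.5, 57.8 and 61.1 TPM in TAZ siRNA dDAVP libraries and 55.3, 54.4 and 53.8 TPM in TAZ siRNA vehicle libraries. In control siRNA dDAVP libraries the values were 56.3, 53.6 and 55.1 TPM, against 51.2, 53.0 and 48.4 TPM in control siRNA vehicle libraries. The ranges stood apart with either siRNA, with dDAVP higher, by less than for Gclc. The log2 fold change with dDAVP was 0.16 ± 0.04 with TAZ siRNA (SE, edgeR adjusted p = 0.0215) and 0.17 ± 0.04 with control siRNA (adjusted p = 0.00877). With TAZ siRNA the call did not hold without TAZ siRNA dDAVP replicate 1 or 3 (adjusted p = 0.0894 and 0.0860), without TAZ siRNA vehicle replicate 1, 2 or 3 (0.0522, 0.0846 and 0.0616), with no low-count filter (0.0551) or with the compared groups alone (0.0675).

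The level of Gclc over that of Gclm in TPM was 0.800, 0.908 and 0.809 in TAZ siRNA dDAVP libraries and 0.782, 0.698 and 0.742 in TAZ siRNA vehicle libraries. It was 0.979, 0.935 and 0.997 in control siRNA dDAVP libraries and 0.726, 0.711 and 0.746 in control siRNA vehicle libraries. The ratio was higher in dDAVP libraries without overlap with either siRNA, and the control siRNA dDAVP libraries lay above all others. Both comparisons had p = 0.1 in a two-sided exact permutation test, the smallest possible with 3 against 3, and 0.15 after adjustment over the 12 ratio comparisons. With vehicle the TAZ siRNA and control siRNA ratios overlapped (exact p = 0.7).

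**Figure D3:**
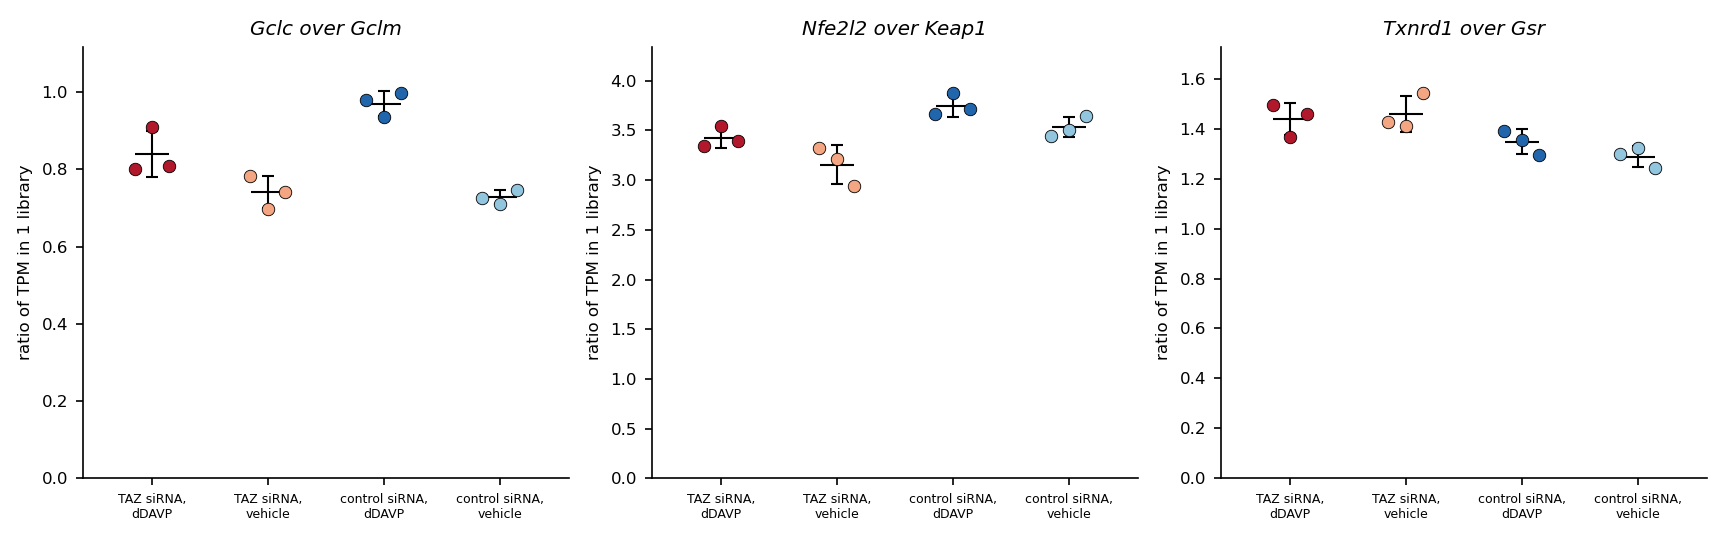
Ratio of 2 genes' TPM within each library (vertical axes, from 0) for Gclc over Gclm, Nfe2l2 over Keap1 and Txnrd1 over Gsr, in the 4 groups from left to right TAZ siRNA dDAVP, TAZ siRNA vehicle, control siRNA dDAVP and control siRNA vehicle; points are libraries, long bars the mean and whiskers the SD of 3 libraries. The Gclc over Gclm ratio averages 0.970 in control siRNA dDAVP libraries and 0.728 in control siRNA vehicle libraries, with no overlap.

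Slc7a11 (chr3:50364936-50499087), the cystine carrier of the xc- exchanger that feeds cysteine to glutathione synthesis and a gene that ATF4 as well as NRF2 is known to drive, was the scarcest member. It had 2.21, 1.75 and 2.15 TPM in TAZ siRNA dDAVP libraries and 2.50, 2.78 and 2.32 TPM in TAZ siRNA vehicle libraries. In control siRNA dDAVP libraries it had 2.44, 2.05 and 2.40 TPM, and in control siRNA vehicle libraries 2.38, 2.07 and 2.01 TPM. With TAZ siRNA the dDAVP libraries lay below the vehicle libraries, and with control siRNA the ranges overlapped. Neither comparison passed the test: the log2 fold change was -0.28 ± 0.11 with TAZ siRNA (SE, edgeR adjusted p = 0.110) and 0.15 ± 0.11 with control siRNA (adjusted p = 0.393). These values rest on 283 to 579 counts a library. In control siRNA vehicle replicate 1, 178 of its 456 counts were assigned to the predicted transcript XM_006500776, which held 0 counts in the other 2 libraries of that group.

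Gsr (chr8:33653238-33698162), glutathione reductase, which turns oxidised glutathione back with NADPH, had 169.6, 187.4 and 166.7 TPM in TAZ siRNA dDAVP libraries and 146.1, 146.7 and 142.2 TPM in TAZ siRNA vehicle libraries. It had 186.5, 185.9 and 188.8 TPM in control siRNA dDAVP libraries and 151.0, 152.5 and 154.9 TPM in control siRNA vehicle libraries. The dDAVP libraries were higher without overlap with either siRNA, and TAZ siRNA dDAVP replicate 2 lay above the other 2 of its group. Gsr rose with dDAVP by 0.30 ± 0.04 on the log2 scale with TAZ siRNA (SE, edgeR adjusted p = 1.78e-05) and by 0.34 ± 0.04 with control siRNA (adjusted p = 1.93e-06).

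Srxn1 (chr2:152105524-152111376), sulfiredoxin, which repairs overoxidised peroxiredoxins, had the largest log2 fold change of the 10 members in both comparisons of dDAVP with vehicle. It had 35.5, 35.2 and 36.6 TPM in TAZ siRNA dDAVP libraries and 23.1, 24.9 and 23.8 TPM in TAZ siRNA vehicle libraries. In control siRNA dDAVP libraries it had 36.4, 36.6 and 35.4 TPM, and in control siRNA vehicle libraries 22.2, 22.5 and 23.6 TPM. All 6 dDAVP libraries lay above all 6 vehicle libraries, and the ranges of the TAZ siRNA and control siRNA groups overlapped with either treatment. The rise was 0.61 ± 0.05 on the log2 scale with TAZ siRNA (SE, edgeR adjusted p = 1.32e-07) and 0.72 ± 0.05 with control siRNA (adjusted p = 1.04e-08). These are ratios of 1.53 and 1.65.

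Txnrd1 (chr10:82833951-82897724), the selenoprotein that reduces thioredoxin in the cytoplasm with NADPH, had 253.3, 256.3 and 242.8 TPM in TAZ siRNA dDAVP libraries and 208.3, 206.9 and 219.3 TPM in TAZ siRNA vehicle libraries. It had 259.6, 252.0 and 244.4 TPM in control siRNA dDAVP libraries and 195.8, 201.9 and 192.4 TPM in control siRNA vehicle libraries. Again all 6 dDAVP libraries lay above all 6 vehicle libraries. Txnrd1 rose by 0.28 ± 0.03 on the log2 scale with TAZ siRNA (SE, edgeR adjusted p = 1.64e-05) and by 0.41 ± 0.03 with control siRNA (adjusted p = 9.68e-08). Its counts came mostly, 83.9% to 89.1% in each library, from NM_001042513, whose start lies in the window printed above. NM_015762, with 1.945% to 10.2% of the counts, has the same start. The level of Txnrd1 over that of Gsr in TPM averaged 1.44 ± 0.0649 in TAZ siRNA dDAVP libraries, 1.46 ± 0.0720 in TAZ siRNA vehicle libraries, 1.35 ± 0.0493 in control siRNA dDAVP libraries and 1.29 ± 0.0418 in control siRNA vehicle libraries (SD, n = 3 each). dDAVP and vehicle libraries overlapped in this ratio with either siRNA, and TAZ siRNA and control siRNA libraries overlapped with dDAVP. With vehicle the ratio was higher in TAZ siRNA libraries than in control siRNA libraries without overlap (two-sided exact permutation p = 0.1, the smallest 3 against 3 allows, 0.15 adjusted over 12 ratio comparisons).

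Nqo1 (chr8:107388225-107403205), the quinone reductase often read as a marker of NRF2 activity, had 187.5, 170.9 and 180.1 TPM in TAZ siRNA dDAVP libraries and 140.8, 125.7 and 147.3 TPM in TAZ siRNA vehicle libraries. It had 146.5, 150.6 and 143.7 TPM in control siRNA dDAVP libraries and 101.7, 90.2 and 106.2 TPM in control siRNA vehicle libraries. The groups formed steps: TAZ siRNA dDAVP was highest, control siRNA vehicle was lowest, and TAZ siRNA vehicle overlapped control siRNA dDAVP. Nqo1 rose with dDAVP by 0.41 ± 0.07 on the log2 scale with TAZ siRNA (SE, edgeR adjusted p = 0.000531) and by 0.61 ± 0.07 with control siRNA (adjusted p = 7.68e-06).

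Hmox1 (chr8:75093618-75100593), haem oxygenase 1, which breaks haem down to biliverdin, iron and carbon monoxide, had 23.9, 21.9 and 22.5 TPM in TAZ siRNA dDAVP libraries and 17.7, 18.3 and 22.0 TPM in TAZ siRNA vehicle libraries. It had 26.0, 24.2 and 22.6 TPM in control siRNA dDAVP libraries and 15.5, 20.01 and 16.6 TPM in control siRNA vehicle libraries. The ranges stood apart with control siRNA and overlapped with TAZ siRNA, where vehicle replicate 3 reached the dDAVP range. With control siRNA Hmox1 rose by 0.54 ± 0.10 on the log2 scale (SE, edgeR adjusted p = 0.000533). With TAZ siRNA the log2 fold change of 0.27 ± 0.10 missed the threshold (adjusted p = 0.0829) and passed it without TAZ siRNA vehicle replicate 3 (0.37, adjusted p = 0.0170).

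TAZ siRNA itself was set against control siRNA with each treatment. With vehicle, 1 of the 10 members was called higher and 0 lower, where 6.3% of all tested genes were called, 3.19% higher and 3.11% lower. The gene called was Nqo1, by 0.46 ± 0.07 on the log2 scale (SE, edgeR adjusted p = 0.000968), and it kept this call under all 19 alternatives run. Of the other 9 members, Txnrd1 was called higher with upper quartile factors (0.12, adjusted p = 0.0463) and Slc7a11 with its main transcript in place of the gene sum (0.45, adjusted p = 0.0418). Nfe2l2 was called lower without TAZ siRNA vehicle replicate 1 (-0.13, adjusted p = 0.0333), which had 236.8 TPM against 213.2 and 214.5 TPM in the other 2 libraries of that group.

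With dDAVP, TAZ siRNA libraries had 1 member called higher and 2 lower, where 10.7% of all tested genes were called, 5.77% higher and 4.97% lower. Nqo1 was higher by 0.26 ± 0.07 on the log2 scale (SE, edgeR adjusted p = 0.0189), Nfe2l2 lower with a log2 fold change of -0.12 ± 0.04 (adjusted p = 0.0470) and Gsr lower with -0.13 ± 0.04 (adjusted p = 0.0270). All 3 calls depended on single libraries. Without TAZ siRNA dDAVP replicate 1 the adjusted p was 0.0854 for Nqo1, 0.127 for Nfe2l2 and 0.0922 for Gsr, and without replicate 3 of that group it was 0.0592 for Nqo1, 0.147 for Nfe2l2 and 0.136 for Gsr. Without control siRNA dDAVP replicate 1 it was 0.0618 for Nqo1 and 0.0863 for Nfe2l2. Without replicate 2 of that group it was 0.125 for Nfe2l2 and 0.0760 for Gsr, and without replicate 3 it was 0.0758 for Nqo1, 0.0942 for Nfe2l2 and 0.0766 for Gsr. Nfe2l2 also missed the threshold without control siRNA vehicle replicate 1 or 3 (0.0519 and 0.0576) and with upper quartile factors (0.0572).

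Whether the response to dDAVP differed between the siRNAs was tested directly, as the dDAVP fold change with TAZ siRNA minus that with control siRNA. Under edgeR 0 of the 10 members were called, where 0.0314% of all tested genes, 5 genes, were (0.0126% higher and 0.0188% lower). All 10 differences were negative, from -0.42 ± 0.15 for Slc7a11 to -0.01 ± 0.06 for Gclm on the log2 scale (SE), with a median of -0.12 against 0.002 over all tested genes. The 10 genes are not replicates, so their shared sign is a description. The smallest p of a member was that of Gclc, with -0.25 ± 0.07 (edgeR adjusted p = 0.247). Before adjustment the lowest edgeR p-values were 0.00154 for Gclc, 0.0115 for Slc7a11 and 0.0141 for Txnrd1, and none passed after it. The share of all tested genes with such unadjusted values is not given here, so they are no excess over a background. DESeq2 called Gclc alone among the members (-0.25, adjusted p = 0.0444), while over all alternatives its adjusted p ran from 0.0444 to 0.614. limma-voom called 0 members. A rise called with 1 siRNA and not with the other, as for Hmox1, is therefore not shown to differ between them.

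The wider pathway was read from 10 gene lists that hold none of the members. These lists were chosen with earlier results of these data known, so counts above the background are a description. The background for their counts was 6.38% of all tested genes higher and 4.41% lower with dDAVP with TAZ siRNA, and 9.72% higher and 9.48% lower with control siRNA. Against these shares the counts higher with TAZ siRNA of glutathione synthesis, use and breakdown (2 of 24), thioredoxins and partners (1 of 21), NRF2 regulators (2 of 18) and selenoproteins (2 of 16) lie near the background and are no result about those lists. Among genes that modify or remove reactive compounds beside the members, dDAVP raised 8 of 17 tested with TAZ siRNA and lowered 0, and raised 8 and lowered 1 (Abcc5) with control siRNA. The list's median log2 fold change was 0.15 with TAZ siRNA and 0.17 with control siRNA, and the medians of all tested genes are those given above. Abcc3, an exporter of glutathione and glucuronide conjugates, averaged 7.69 ± 0.365 TPM in TAZ siRNA dDAVP libraries, 5.19 ± 0.237 TPM in TAZ siRNA vehicle libraries, 10.5 ± 0.460 TPM in control siRNA dDAVP libraries and 4.37 ± 0.112 TPM in control siRNA vehicle libraries (SD, n = 3 each). It rose with dDAVP by 0.60 ± 0.07 on the log2 scale with TAZ siRNA (SE, edgeR adjusted p = 5.80e-06) and by 1.32 ± 0.07 with control siRNA (adjusted p = 1.52e-10). Adh7, an alcohol and retinol dehydrogenase, rose by 0.83 with TAZ siRNA and 1.10 with control siRNA. Cbr3, a carbonyl reductase, rose by 0.64 with TAZ siRNA and 0.73 with control siRNA, and Osgin1, an oxidative stress induced growth inhibitor, by 0.51 with TAZ siRNA and 0.63 with control siRNA.

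Glutathione transferases, which couple glutathione to electrophiles, had 11 of 18 tested members higher with dDAVP and 0 lower with TAZ siRNA, and 11 higher and 1 (Gstt1) lower with control siRNA. The list's median log2 fold change was 0.28 with TAZ siRNA and 0.35 with control siRNA. Gstm1, the most abundant of those named, averaged 1174 ± 61.9 TPM in TAZ siRNA dDAVP libraries, 782.8 ± 35.6 TPM in TAZ siRNA vehicle libraries, 1122 ± 57.9 TPM in control siRNA dDAVP libraries and 763.0 ± 42.4 TPM in control siRNA vehicle libraries (SD, n = 3 each). Its log2 fold change was 0.61 ± 0.05 with either siRNA. On the log2 scale Gsta4 rose by 0.73 with TAZ siRNA and 1.17 with control siRNA, Mgst1 by 0.70 with TAZ siRNA and 0.69 with control siRNA, and Gstt2 by 0.40 with TAZ siRNA and 0.59 with control siRNA. Several of these genes have near-identical copies, so the split of reads between them is uncertain.

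Of other genes of glutathione synthesis, use and breakdown, dDAVP raised 2 of 24 (Gpx1 and Slc3a2) and lowered 0 with TAZ siRNA, and raised 6 and lowered 1 (Oplah) with control siRNA. The list's median log2 fold change was 0.09 with TAZ siRNA and 0.07 with control siRNA. Gpx1, the abundant glutathione peroxidase of the cytoplasm, rose by 0.34 ± 0.04 on the log2 scale with TAZ siRNA (SE, edgeR adjusted p = 2.11e-05) and by 0.50 ± 0.04 with control siRNA (adjusted p = 1.01e-07). Slc3a2, the heavy chain that partners Slc7a11, rose by 0.20 with TAZ siRNA (edgeR adjusted p = 0.000664) and by 0.33 with control siRNA (adjusted p = 1.89e-06). Gss, which completes glutathione synthesis, did not pass the test with either siRNA (log2 fold change 0.08 with TAZ siRNA and 0.07 with control siRNA). Ggt1, which cleaves extracellular glutathione, averaged 31.0 ± 0.704 TPM in TAZ siRNA dDAVP libraries, 27.9 ± 1.04 TPM in TAZ siRNA vehicle libraries, 49.6 ± 3.06 TPM in control siRNA dDAVP libraries and 46.7 ± 4.68 TPM in control siRNA vehicle libraries (SD, n = 3 each). It was lower with TAZ siRNA with either treatment, with log2 fold changes of -0.70 ± 0.07 with dDAVP (SE, edgeR adjusted p = 5.55e-06) and -0.75 ± 0.07 with vehicle (adjusted p = 8.65e-06), the opposite direction to Nqo1. The 2 genes raised with TAZ siRNA became 3, with 1 lowered, without TAZ siRNA vehicle replicate 3, and DESeq2 called 4.

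Of thioredoxins, peroxiredoxins and their partners, dDAVP raised 1 of 21 and lowered 1 with TAZ siRNA, and raised 6 and lowered 3 (Txnrd2, Sesn1 and Msrb3) with control siRNA. Across these genes the median log2 fold change was 0.01 with TAZ siRNA and 0.05 with control siRNA. Sesn2, sestrin 2, was the gene raised with both, by 0.54 ± 0.06 on the log2 scale with TAZ siRNA and 0.62 ± 0.06 with control siRNA. Msrb3, a methionine sulfoxide reductase, was lowered with both, with log2 fold changes of -0.35 ± 0.04 with TAZ siRNA and -0.41 ± 0.04 with control siRNA. Prdx1, a peroxiredoxin that sulfiredoxin repairs, rose by 0.30 ± 0.04 with control siRNA (SE, edgeR adjusted p = 0.000101), and its log2 fold change with TAZ siRNA was 0.10 (adjusted p = 0.161). Prdx1 was also higher in TAZ siRNA vehicle libraries (mean 516.7 TPM) than in control siRNA vehicle libraries (mean 419.3 TPM), by 0.29 ± 0.04 on the log2 scale (adjusted p = 0.000951). Txnrd2, the mitochondrial thioredoxin reductase, was lowered with control siRNA (-0.30 ± 0.06, adjusted p = 0.00253), where its cytoplasmic relative Txnrd1 rose.

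Enzymes that supply NADPH, on which Gsr, Txnrd1 and Nqo1 all draw, had 5 of 13 higher with dDAVP (G6pdx, Pgls, Pgd, Me1 and Idh1) and 0 lower with TAZ siRNA, and 7 higher and 1 (Me3) lower with control siRNA. Across these genes the median log2 fold change was 0.08 with TAZ siRNA and 0.12 with control siRNA. G6pdx, which opens the pentose phosphate pathway, rose by 0.29 ± 0.05 on the log2 scale with TAZ siRNA and 0.35 ± 0.05 with control siRNA, and Pgd, a later step, by 0.23 ± 0.04 with TAZ siRNA and 0.37 ± 0.04 with control siRNA. Idh1, a cytoplasmic source of NADPH, rose by 0.32 with TAZ siRNA and 0.64 with control siRNA, and Me1, another, by 0.26 with TAZ siRNA and 0.42 with control siRNA. Without control siRNA dDAVP replicate 2, or without control siRNA vehicle replicate 2, the 7 higher became 4.

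Haem and iron genes had 5 of 19 higher (Hmox2, Fth1, Ftl1 and Alad among them) and 1 lower (Cpox) with dDAVP with either siRNA. Across these genes the median log2 fold change was 0.14 with TAZ siRNA and 0.07 with control siRNA. Hmox2, the constitutive haem oxygenase, rose by 0.27 ± 0.05 with TAZ siRNA and 0.26 ± 0.05 with control siRNA on the log2 scale, and the ferritin chains rose as well, Fth1 by 0.24 with TAZ siRNA and 0.27 with control siRNA and Ftl1 by 0.22 with TAZ siRNA and 0.34 with control siRNA, though each has copies that may share reads. Blvrb, a biliverdin reductase downstream of haem oxygenase, did not pass the test with either siRNA (log2 fold change 0.23 with TAZ siRNA and 0.12 with control siRNA).

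NRF2 regulators and partners went both ways: 2 of 18 were higher (Nfe2l1 and Sqstm1) and 2 lower (Nfe2l3 and Bach2) with dDAVP with TAZ siRNA, and 4 were higher (Nfe2l1, Maff, Mafg and Sqstm1) and 4 lower (Bach1, Btrc, Palb2 and Amer1) with control siRNA. As a median, the log2 fold change was -0.003 with TAZ siRNA and -0.03 with control siRNA. Bach1, a repressor that competes with NRF2 for antioxidant response elements, fell with control siRNA (log2 fold change -0.30 ± 0.04, edgeR adjusted p = 7.19e-05), with 27.8 ± 0.541 TPM in dDAVP libraries and 35.6 ± 0.339 TPM in vehicle libraries (SD, n = 3 each). With TAZ siRNA the log2 fold change of Bach1 was -0.13 ± 0.04 (adjusted p = 0.0684). Mafg, a small MAF partner, rose by 0.21 ± 0.04 with control siRNA (adjusted p = 0.000571), and Cul3 did not pass the test with either siRNA. Sqstm1, the autophagy receptor p62 that binds KEAP1, rose by 0.17 ± 0.04 with TAZ siRNA (edgeR adjusted p = 0.00747) and 0.20 ± 0.04 with control siRNA (adjusted p = 0.00109). With TAZ siRNA that list's counts fell to 0 without TAZ siRNA vehicle replicate 2, and Sqstm1 had adjusted p = 0.0746 there and 0.0661 without TAZ siRNA dDAVP replicate 1. Without TAZ siRNA dDAVP replicate 1 the list had 0 higher and 1 lower, and without replicate 3 of that group 2 higher and 0 lower.

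The remaining 3 lists bear on Slc7a11, on selenium and on superoxide. ATF4 and its targets beside Slc7a11 had 3 of 16 higher (Sesn2, Slc3a2 and Psat1) and 1 lower (Atf3) with dDAVP with TAZ siRNA, and 9 higher and 1 (Atf3) lower with control siRNA. The lists overlap: Sesn2 is also counted among thioredoxins and partners, and Slc3a2 and Chac1 also among genes of glutathione synthesis, use and breakdown. As a median, the log2 fold change was 0.09 with TAZ siRNA and 0.23 with control siRNA. Atf4 itself rose by 0.19 ± 0.03 on the log2 scale with control siRNA (edgeR adjusted p = 0.000605), and Psat1, of serine synthesis, by 0.24 with TAZ siRNA and 0.41 with control siRNA. Slc7a11 thus did not pass the test where 9 of these 16 genes rose. Of 16 genes of selenoprotein synthesis and selenoproteins, 2 were higher with dDAVP with TAZ siRNA (Selenop and Selenow) and 3 with control siRNA (Secisbp2 too), and 0 were lower. Selenop, at 1.66 to 4.43 TPM in the 4 group means, rose by 0.98 ± 0.20 on the log2 scale with TAZ siRNA and 1.16 ± 0.19 with control siRNA. As a median, the log2 fold change was 0.009 with TAZ siRNA and 0.03 with control siRNA. Without TAZ siRNA dDAVP replicate 1 or 2, or TAZ siRNA vehicle replicate 2, the 2 became 1. None of the 3 tested genes of superoxide and peroxide removal was called in any edgeR comparison.

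**Figure D4:**
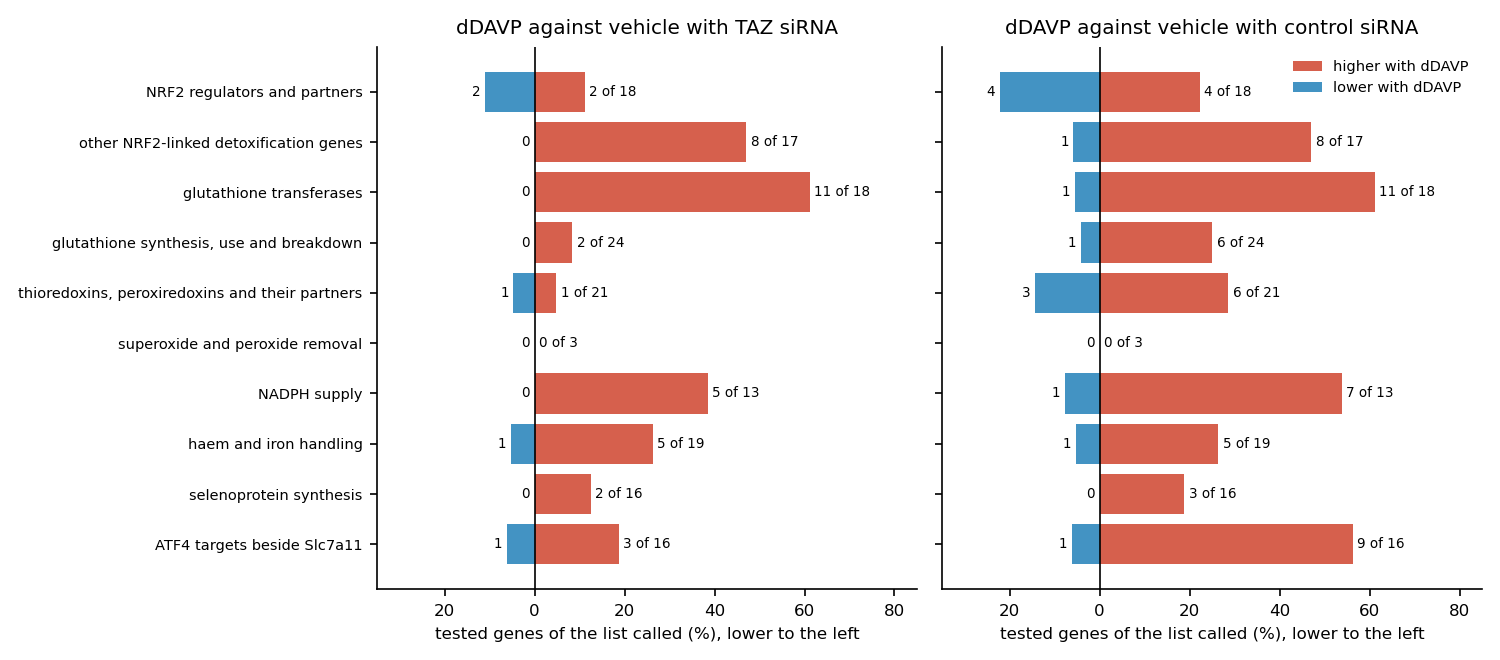
Share of each list's tested genes called with dDAVP (horizontal axes, percent; higher to the right in red, lower to the left in blue), with TAZ siRNA at left and with control siRNA at right; labels give the counts. Glutathione transferases reach 11 of 18 higher with either siRNA, and the list of superoxide and peroxide removal has 0 of 3.

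The lists were also read in the comparisons of TAZ siRNA with control siRNA. Of all tested genes, TAZ siRNA raised 5.77% and lowered 4.97% with dDAVP, and raised 3.19% and lowered 3.11% with vehicle. With dDAVP, TAZ siRNA raised 0 to 2 and lowered 0 to 3 genes of a list. With vehicle it raised 0 to 2 and lowered 0 to 2 on every list but that of ATF4, where 5 of 16 were higher and 2 lower. Counts of 0 to 3 on lists of 3 to 24 tested genes are not read here as a result about those lists. On the ATF4 list the 5 higher ran from 1 to 8 when single libraries were left out. These small counts moved with single libraries. With vehicle, leaving out 1 library moved the number called by over 1.5 times on every list but that of superoxide and peroxide removal. On 8 of those lists TAZ siRNA vehicle replicate 2 was such a library, and without it 0 genes were called among NRF2 regulators, other detoxification genes and selenoproteins; on the thioredoxin list it was TAZ siRNA dDAVP replicate 2. With dDAVP the number called moved by as much without TAZ siRNA dDAVP replicate 1 on the lists of NRF2 regulators, glutathione synthesis, NADPH and ATF4, without control siRNA dDAVP replicate 1 on that of haem and iron, and without TAZ siRNA dDAVP replicate 3, at 0, on that of selenoproteins. The 4 glutathione genes called with dDAVP became 2 without any 1 of 8 libraries and 2 with the replicate block.

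Markers of other cell types were set beside the dDAVP comparisons. The summed level of the 9 markers of other nephron segments was 61.0 to 64.5 TPM in TAZ siRNA dDAVP libraries and 81.0 to 84.1 TPM in TAZ siRNA vehicle libraries, and 51.9 to 57.2 TPM in control siRNA dDAVP libraries and 77.8 to 82.7 TPM in control siRNA vehicle libraries. Nphs1 and Slc12a1 of that list were at 0. The summed level of the 14 collecting duct markers was 5225 to 5446 TPM in TAZ siRNA dDAVP libraries and 4670 to 5014 TPM in TAZ siRNA vehicle libraries, and 5575 to 5791 TPM in control siRNA dDAVP libraries and 4626 to 4718 TPM in control siRNA vehicle libraries. The 7 immune markers summed to 35.3 to 38.4 TPM in TAZ siRNA dDAVP libraries and 37.8 to 40.8 TPM in TAZ siRNA vehicle libraries, and to 28.0 to 32.3 TPM in control siRNA dDAVP libraries and 35.6 to 40.4 TPM in control siRNA vehicle libraries, with Cd3e at 0. With TAZ siRNA the 5 intercalated cell markers summed to 125.2 to 141 TPM with dDAVP and 111.2 to 125.4 TPM with vehicle. With control siRNA their sums were 125.9 to 138 TPM with dDAVP and 125.6 to 131 TPM with vehicle. Nearly all of that was Atp6v1b1 (111.2 to 140.8 TPM), with Slc26a4 and Foxi1 at 0. Atp6v1b1 was called with dDAVP with TAZ siRNA (edgeR adjusted p = 0.00272) and not with control siRNA (0.352). Most of the nephron sum was Podxl and Lrp2, and both were called lower with dDAVP with either siRNA. Of the abundant genes in the collecting duct sum, Krt8 (946 to 1388 TPM over all libraries) and Krt18 (1269 to 1986 TPM) were called with dDAVP with either siRNA, while Epcam and Cdh1 were not (edgeR adjusted p = 0.181 and 0.926 with TAZ siRNA and 0.427 and 0.820 with control siRNA). The collecting duct sums were higher and the nephron sums lower in dDAVP libraries with either siRNA, and the immune sums were lower in dDAVP libraries, without overlap, with control siRNA. The part of any of these markers in the members' changes was not tested. In bulk RNA, more cells of a kind and more RNA per cell cannot be told apart.

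The genes whose pattern over the 12 libraries was closest to that of a member were found by the root mean square distance between centred log2 CPM values, among 12564 tested non-member genes with a mean of at least 1 CPM. Closest to Srxn1 were 6430548M08Rik (distance 0.0450), Ctsh (0.0541), Tspan33 (0.0559), Cystm1 (0.0588) and H6pd (0.0672). Within the members, Gclc lay nearest to Srxn1 (0.138) and Slc7a11 farthest (0.395). Closest to Gclc were Tob1 (0.0673), Tmprss2 (0.0712), Polm (0.0727), Bcar3 (0.0735) and Mrps6 (0.0744), while the nearest member to Gclc was Txnrd1 (0.0906). The 5 genes named for each lay closer to it than any other member did. They were picked as the nearest of 12564 genes, against only the few other members. This order therefore says nothing on whether the members move together. All distances are over libraries that share the dDAVP contrast.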

How the data were processed

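The authors deposited, per the file headers, an estimated count and a TPM value (level per length, scaled to the library) for each gene, transcript and library. The deposited estimated counts are whole: they equal TPM times transcript length times a library factor, rounded up, and in 85.55% of values from 2 to 20 this product had a fraction. No further rounding was needed. In the submitters' processing notes Bowtie 0.12.2 and the builds mm8 and mm10 appear with no role. Which tool made the counts, and whether it read strand, was not stated, although the labels name a stranded TruSeq kit beside another TruSeq kit. Reads of overlapping antisense transcripts and of near-identical copies may therefore be shared. Coordinates of all 10 members equalled RefSeq on GRCm38. Column names that spell the drug as dDAUP were matched to the libraries by number, and 24 columns of FPKM were not used.

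Counts were fitted with edgeR 4.0.16 in R 4.3.3 (filterByExpr with a minimum count of 10 on the 4 groups, TMM, robust quasi-likelihood F test, 1 mean per group over 12 libraries, 5 contrasts, Benjamini-Hochberg adjustment over 15932 genes, threshold 0.05). Tested genes held 99.976% of counts, and the biological coefficient of variation was 5.11%. SEs are the log2 fold change over the square root of F. The fit was tested on simulated data. No 2 libraries of the same group agreed within sampling noise. Alternatives were upper quartile factors, DESeq2 1.42.0, limma-voom (limma 3.58.1), no low-count filter, the replicate number as a block, the compared groups alone, each library left out, and the main transcript in place of the gene sum. The members, the pathway lists and the motifs were chosen with earlier results of these data known. Beside the members, genes named are at most 4 per list with the largest change among those called for dDAVP with control siRNA or TAZ siRNA with vehicle, plus genes fixed by role. Genes named for a count of 5 or fewer were chosen after their values were seen.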

Additional observations from a re-analysis of the deposited data

Results flagged for a closer look

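Abcc3 was 1 of the 5 genes whose dDAVP response differed between the siRNAs in the edgeR test of the difference itself. Its log2 fold change with dDAVP was smaller with TAZ siRNA than with control siRNA by a log2 difference of -0.72 ± 0.09 (SE, adjusted p = 0.00374, with no overlap between the 3 dDAVP libraries and the 3 vehicle libraries of either siRNA). DESeq2 gave it no adjusted p. No outlying library was looked for, since groups hold 3 libraries each.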

How the results depend on the processing

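Of 940 values of the members under the alternatives, 896 kept their direction and their side of the threshold, 27 lost a call, 5 gained one and 12 changed sign. Those that changed sign were Keap1 for TAZ siRNA with dDAVP, whose log2 fold change was -0.00029 with DESeq2, -0.0106 with no low-count filter and -0.0090 to 0.0136 with single libraries left out; Keap1 for dDAVP with TAZ siRNA, at -0.0238 with its main transcript; and the Gclm difference, at -0.0332 to 0.0177 with single libraries left out. The cause was not tested. The number of members called with TAZ siRNA against control siRNA with vehicle was 2 with upper quartile factors and 2 with main transcripts, and DESeq2 called 1 member for the difference. For the difference over all genes, DESeq2 called 87 and the fit with no low-count filter 12.

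With single libraries left out, members called numbered 8 to 8 for dDAVP with control siRNA, 5 to 7 for dDAVP with TAZ siRNA, 1 to 2 for TAZ siRNA with vehicle, 0 to 3 for TAZ siRNA with dDAVP and 0 to 0 for the difference. Over all genes the ranges were 2103 to 3250, 1118 to 1752, 410 to 1435, 1049 to 1912 and 3 to 16 in the same order. The lowest all-gene counts came without control siRNA vehicle replicate 2, TAZ siRNA vehicle replicate 2 (for both the second and the third comparison), control siRNA dDAVP replicate 3 and, for the difference, any 1 of TAZ siRNA dDAVP replicate 1, control siRNA dDAVP replicate 3 and control siRNA vehicle replicate 3. With the replicate number as a block, 2983, 1663, 968, 1690 and 6 genes were called in that order, against 3058, 1719, 1004, 1711 and 5 without it, and 0 member calls changed. Whether the numbers pair the libraries was not settled. Same-numbered libraries of compared groups deviated together with correlations of -0.0456 to 0.0633, 0 of 12 over 0.1. In 8 of these 12 cases the library of the first-named group correlated best with its own number. The cases are not 12 separate libraries, since TAZ siRNA dDAVP libraries were counted more than once. Replicate 1 of that group correlated best with its own number against control siRNA dDAVP (0.0633) and not against TAZ siRNA vehicle (-0.0273). Slc7a11 had the fewest counts of the members, 283 to 579 a library. Alternatives for the pathway lists were added after seeing the data.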
